A study of Mus musculus with 15 samples.

Results

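The miR-30 family was followed in small RNA libraries of acini from the mouse pancreas, the exocrine units from which digestive enzymes are secreted. Its members here were 8 mature miRNAs, chosen by name from the 1915 in the table: the 5p arms mmu-miR-30a-5p, mmu-miR-30b-5p, mmu-miR-30c-5p, mmu-miR-30d-5p and mmu-miR-30e-5p, and the 3p arms mmu-miR-30a-3p, mmu-miR-30b-3p and mmu-miR-30e-3p (the prefix, for Mus musculus, is left out below). All acini came from C57BL/6 mice aged 7-8 weeks, and the 15 libraries formed 5 groups of 3. Acini received caerulein, a peptide agonist of the cholecystokinin receptor, at 100 nM (called pathological in the design) or 100 pM (called physiological), or the bile acid TLC-S (taurolithocholic acid 3-sulfate) at 250 uM or 62.5 uM, or no drug (control). The labels say that RNA pools from 3 independent preparations were sequenced without saying how pools relate to replicates, so the p-values refer to the spread among libraries of a group, part or all of which may be technical. All groups were of acini from the same strain, tissue and age, with no time of exposure given in the labels.

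A miRNA hairpin is cut into a 5p and a 3p arm, and the arm that stays in the Argonaute protein pairs with messenger RNAs mainly through its seed, bases 2 to 8. In the miR-30 family the 5p arms carry a shared seed and are the usual guide strands, while the 3p arms are mostly passenger strands. The family is abundant in epithelial organs and is known in human pancreatic islet cells for holding down mesenchymal genes. Its hairpins lie in neighbouring pairs, so that members of a pair can come from 1 primary transcript.

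The mature sequences are shown because they divide the members that have one here by seed. Of the 8 members, 5 matched the RefSeq table (GRCm38.p6) used here. miR-30b-5p, miR-30b-3p and miR-30d-5p did not, so their sequences are not shown. The lines below run 5′ to 3′, with the seed in capitals. Those of the 3p arms of the 2 miR-30c hairpins, which are not among the 8, follow the members.
miR-30a-5p: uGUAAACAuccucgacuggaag
miR-30e-5p: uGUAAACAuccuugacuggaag
miR-30c-5p: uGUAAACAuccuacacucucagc
miR-30a-3p: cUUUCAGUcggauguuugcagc
miR-30e-3p: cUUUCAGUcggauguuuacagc
miR-30c-1-3p: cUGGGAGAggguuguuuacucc
miR-30c-2-3p: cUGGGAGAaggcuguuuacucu

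The 3 5p members with a sequence shared their first 12 bases and parted after them. From miR-30a-5p to miR-30e-5p the only difference was C13U, and from miR-30a-3p to miR-30e-3p it was G18A, with positions counted from 1 at the 5′ end. Reads of such near-identical pairs can be split between them by the counting, so their levels are uncertain to that extent. Reads of miR-30b-5p appear divided as well, since its value per hairpin was a multiple of 1/3 but not whole in 12 of 15 libraries. Those of miR-30c-5p were whole in 0 of 15 libraries for either of its hairpins. Which hairpins shared these reads is not given, and the effect on the levels of miR-30b-5p and miR-30c-5p was not tested. Outside the family, miR-384-5p carried the same seed as the 5p members in the sequence table. It had 20 counts in all, in 7 of 15 libraries, and was not tested.

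By the GENCODE M21 annotation of GRCm38, Mir30b (chromosome 15, 68337415 to 68337510, minus strand) lies in an exon of the non-coding transcript Gm26621. Mir30d (chromosome 15, 68341208 to 68341289, minus strand) lies 3697 bases away in exons of Gm20732 and Gm37296. Mir30c-1 (chromosome 4, 120769534 to 120769622) and Mir30e (chromosome 4, 120772606 to 120772697) share the minus strand of an intron of Nfyc, a gene for a subunit of the transcription factor NF-Y, with 2983 bases between them. Mir30a (chromosome 1, 23272269 to 23272339) lies outside annotated genes on the plus strand, and Mir30c-2 (chromosome 1, 23291701 to 23291784) lies 19361 bases beyond it in an exon of Gm27028. miR-30c-5p is made by both Mir30c-1 and Mir30c-2. Its 2 precursors had equal deposited values in 12 of 15 libraries and differed by at most 6 counts in the others, so its counts cannot be told apart by hairpin. The 3p arms do differ, and miR-30c-2-3p held 97.9% ± 1.12 of the counts of both miR-30c 3p arms (SD, n = 15).

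Library totals ran from 535473 to 5087728 counts. All 8 members passed the low-count filter, among 351 tested miRNAs. The lowest count of any member was 7, for miR-30b-3p in caerulein 100 nM replicate 2 (95% exact Poisson interval 2.81 to 14.4), while miR-30b-5p had at least 1150 in every library (lowest count's interval 1084 to 1218). These intervals cover counting error only. The tissue label was checked against miRNA markers: the 4 acinar markers summed to 238378 to 787353 CPM over the libraries, and the 5 leukocyte markers to 39.2 to 108 CPM. Markers of other pancreatic cells were present too. The 3 islet and neuroendocrine markers summed to 79257 to 142210 CPM, and the 5 duct and other epithelium markers to 73895 to 115529 CPM. The 5 stellate and mesenchymal markers summed to 7891 to 17298 CPM, so the libraries were not of acinar signal alone. Libraries of 1 group differed in miR-148a-3p, the main acinar miRNA. It took 50.5% of counts in control replicate 3, against 17.6% and 18.7% in the other control libraries, and 42.7% in TLC-S 250 uM replicate 3, against 27.9% and 21.4% in the others of that group. In caerulein 100 pM replicates 2 and 3 it took 35.4% and 36.4%, against 23.8% in replicate 1. The TMM factor was 0.735 in control replicate 3, 0.768 and 0.794 in caerulein 100 pM replicates 2 and 3, and 0.901 to 1.19 in the other 12 libraries. The differences of members from control are followed below by their range without control replicate 3.

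Levels of some members also went with the replicate number, which the labels tie to no batch or preparation. The main tests below did not use this number. miR-30a-3p and miR-30e-3p were lowest in replicate 1 in 5 of 5 groups, and miR-30d-5p and miR-30e-5p were highest there in 5 of 5. miR-30a-3p was highest in replicate 3 in 5 of 5 groups. miR-30b-5p was lowest in replicate 1 in 2 groups, in replicate 2 in 2 and in replicate 3 in 1.

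The 5p members together held 4.71% ± 0.855 of all counts (SD, n = 15), and this share was highest with TLC-S at 62.5 uM. By group it was 4.89% ± 0.569 with caerulein at 100 nM, 4.37% ± 0.565 with caerulein at 100 pM, 4.23% ± 0.811 with TLC-S at 250 uM, 5.74% ± 0.238 with TLC-S at 62.5 uM and 4.31% ± 1.17 in control (SD, n = 3 each). The 62.5 uM libraries, at 5.49% to 5.96%, lay above the control libraries at 2.97% to 5.02%, of which control replicate 3 was the lowest. The 3 against 3 exact permutation test of the log2 share, two-sided, gave p = 0.1, the smallest it allows, and 0.3 after adjustment over 6 comparisons. The log2 share differed by 0.45 with all 3 control libraries and by 0.20 without control replicate 3. In TMM-scaled CPM the 5p sum was 52686 ± 3986 with TLC-S at 62.5 uM and 51474 ± 6631 with caerulein at 100 pM (SD, n = 3 each). Their libraries, at 50346 to 57289 and 47052 to 59098, all lay above control at 40345 to 44325. The sum was 46396 ± 4855 with caerulein at 100 nM and 40445 ± 3550 with TLC-S at 250 uM. On this scale the sum was not tested.

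miR-30a-5p made up most of the family, at 75.2% ± 4.27 of the 5p counts (SD, n = 15). miR-30d-5p followed with 10.5% ± 1.46, miR-30e-5p with 6.51% ± 1.58, miR-30b-5p with 4.54% ± 2.26 and miR-30c-5p with 3.24% ± 0.952. The shares of miR-30e-5p, miR-30b-5p and miR-30c-5p lay within the spread of their neighbours in this order. The 3p members added 0.428% ± 0.150 of the counts of all 8. The 3p arm was 0.391% ± 0.153 of both arms of miR-30a, 1.26% ± 0.663 of miR-30b and 1.51% ± 1.02 of miR-30e.

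miR-30b-5p was the member that moved. It was lowest with TLC-S at 62.5 uM, where it stood below each of the other 12 libraries, and it passed the test against control, against caerulein at 100 pM and between the TLC-S doses. In TMM-scaled CPM the libraries of replicates 1, 2 and 3 had 2247, 2700 and 2197 with caerulein at 100 nM, and 2186, 2240 and 3520 with caerulein at 100 pM. They had 2469, 1736 and 2163 with TLC-S at 250 uM, 596, 1026 and 792 with TLC-S at 62.5 uM, and 1540, 1332 and 3880 in control. The highest 62.5 uM library was below the lowest library of every other group, and control held both the next lowest libraries and the highest one. Group means in descending order were 2649 ± 755 CPM with caerulein at 100 pM, 2381 ± 277 with caerulein at 100 nM, 2251 ± 1415 in control, 2122 ± 368 with TLC-S at 250 uM and 805 ± 215 with TLC-S at 62.5 uM (SD, n = 3 each). Neighbours among the first 4 means differed by less than their spread. The F test over the 5 groups called 3 of 351 miRNAs (0.855%), and miR-30b-5p was the only member among them (adjusted p = 0.0344, edgeR). The call was lost, at adjusted p from 0.0553 to 0.529, without TLC-S 250 uM replicate 2 or 3, any 1 library of TLC-S 62.5 uM, caerulein 100 nM replicate 1 or 2, or caerulein 100 pM replicate 3. The smallest adjusted p among the other 7 members was 0.548, for miR-30e-3p.

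**Figure D1:**
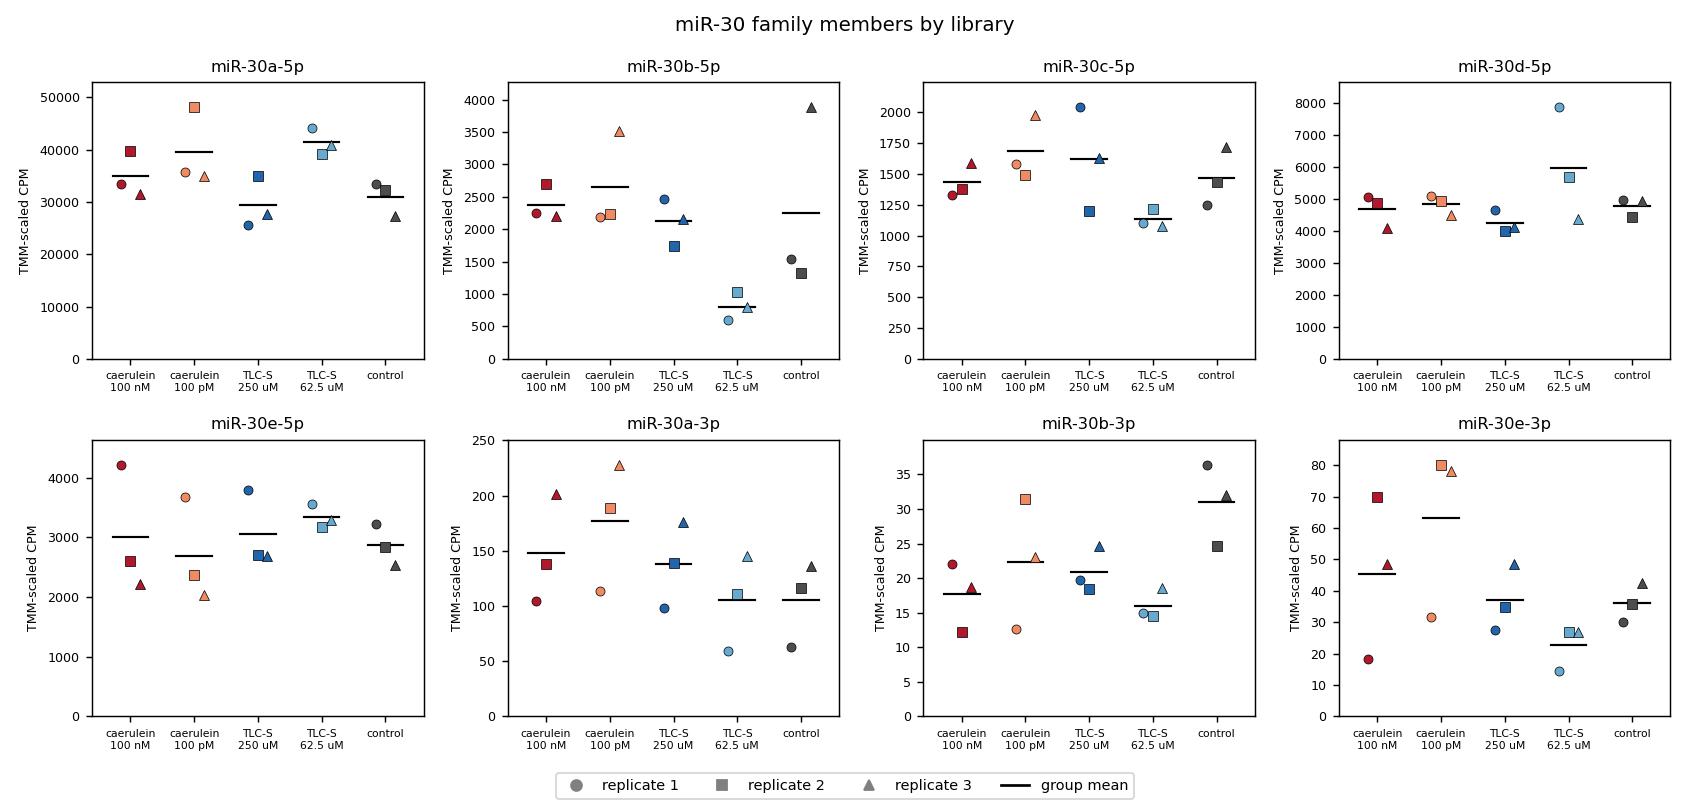
TMM-scaled CPM of the 8 miR-30 members by group; each point is 1 library, its shape gives the replicate number and the bar is the group mean. The 3 miR-30b-5p libraries of TLC-S 62.5 uM sit between 596 and 1026 CPM, below all others, while miR-30a-5p lies between 39255 and 44174 CPM there, above control.

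The comparison of TLC-S at 62.5 uM with control asked what a low dose of a bile acid does to the family. Of the 8 members 1 fell, miR-30b-5p, and 0 rose, against a background of 0.57% of 351 miRNAs called lower. Its log2 difference was -1.48 (SE 0.32, 95% interval -2.15 to -0.82, adjusted p = 0.0191, edgeR), lower in 3 of 3 libraries. Without control replicate 3 the difference was -0.82 and did not pass (adjusted p = 0.416). Without TLC-S 62.5 uM replicate 1 it was -1.29 (adjusted p = 0.141), and without TLC-S 62.5 uM replicate 3 it was -1.53 (adjusted p = 0.0723). With library totals in place of TMM, which shifted the median of all miRNAs by 0.10, it was -1.22 (adjusted p = 0.0734). Over all alternatives the adjusted p of miR-30b-5p ranged from 2.18e-05 to 0.416. Without control replicate 3 edgeR called 0 of 8 members here, and their differences ran from -0.92 for miR-30b-3p to 0.36 for miR-30d-5p.

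The other members of the 5p set lay on both sides of control. miR-30a-5p, the dominant member, had 44174, 39255 and 40913 CPM with TLC-S at 62.5 uM against 33353, 32343 and 27268 CPM in control. All 3 treated libraries were above all 3 controls, but its log2 difference of 0.42 (SE 0.21) did not pass (adjusted p = 0.680, edgeR). miR-30c-5p had 1103, 1217 and 1079 CPM with TLC-S at 62.5 uM against 1249, 1432 and 1722 CPM in control. Its groups did not overlap either, in the other direction, and its difference of -0.37 (SE 0.23) did not pass (adjusted p = 0.794, edgeR). miR-30d-5p, the hairpin neighbour of miR-30b-5p, had 7851, 5668 and 4355 CPM with TLC-S at 62.5 uM against 4952, 4415 and 4939 CPM in control. Its groups overlapped, with a difference of 0.32 (SE 0.22). miR-30e-5p was at 3343 ± 199 CPM with TLC-S at 62.5 uM and 2866 ± 349 CPM in control, also overlapping, with a difference of 0.22 (SE 0.26).

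The 3p members were scarce and none passed. miR-30b-3p, from the hairpin of miR-30b-5p, had 14.97, 14.5 and 18.6 CPM with TLC-S at 62.5 uM against 36.3, 24.7 and 32.0 CPM in control. The groups were separate, and its log2 difference was -0.96 (SE 0.37, unadjusted p = 0.0167, adjusted p = 0.488, edgeR). miR-30e-3p had 14.5, 26.9 and 26.9 CPM with TLC-S at 62.5 uM against 30.04, 35.9 and 42.5 CPM in control. These groups were separate too, with a difference of -0.67 (SE 0.42). miR-30a-3p was at 105 ± 43.3 CPM with TLC-S at 62.5 uM and 105 ± 38.0 CPM in control. In all, 1 of 8 members lay above control in every library, against 6.27% of the 351 miRNAs, and 4 lay below, against 5.98%; 12.3% of all miRNAs had groups without overlap in either direction. The median log2 difference of the 8 members was -0.19, against -0.01 over all 351.

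The endothelial and muscle markers were separate in this comparison, while the islet, duct, stellate, leukocyte, erythrocyte and acinar lists overlapped. The 2 endothelial markers summed to 4182 to 6674 CPM with TLC-S at 62.5 uM and 6721 to 8514 CPM in control. They were below control with caerulein at 100 nM too, at 3401 to 6247 CPM. The 2 muscle markers summed to 20.9 to 40.1 CPM with TLC-S at 62.5 uM and 9.08 to 15.5 CPM in control. The 4 acinar markers ran from 292547 to 345718 CPM with TLC-S at 62.5 uM and from 238378 to 787353 CPM in control. None of these lists had a marker at 0 in every library, and their part in the result was not tested. In bulk libraries fewer cells of a type and less RNA per cell cannot be told apart.

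**Figure D2:**
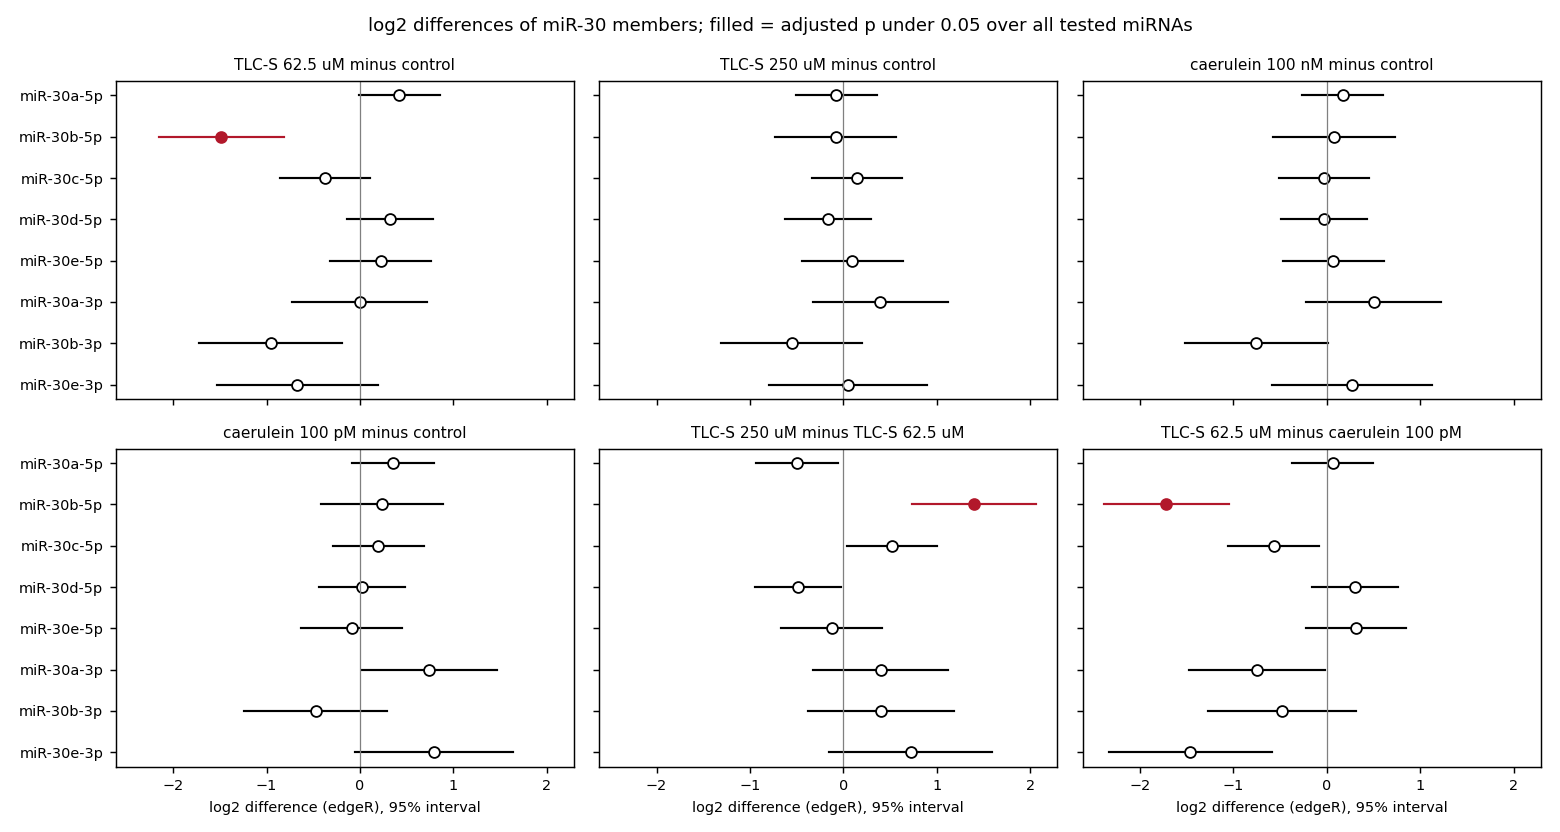
log2 differences of the 8 members in 6 comparisons with their 95% intervals (edgeR), where filled red points passed at an adjusted p under 0.05 over 351 miRNAs. Only miR-30b-5p is filled, at -1.48 for TLC-S 62.5 uM minus control, 1.40 for TLC-S 250 uM minus TLC-S 62.5 uM and -1.72 for TLC-S 62.5 uM minus caerulein 100 pM.

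Between the doses of TLC-S, 1 of 8 members was higher at 250 uM, miR-30b-5p, against 0.57% of all miRNAs called higher. Its log2 difference of 250 uM minus 62.5 uM was 1.40 (SE 0.32, 95% interval 0.73 to 2.06, adjusted p = 0.0368, edgeR), higher in 3 of 3 libraries. The value was 1.22 to 1.61 with single libraries left out, and the adjusted p was above 0.05 without any 1 library of TLC-S 250 uM (0.0502 to 0.168), TLC-S 62.5 uM replicate 1 (0.277) or 3 (0.0580), or caerulein 100 nM replicate 1 (0.0530) or 2 (0.0629). miR-30a-5p had a difference of the opposite sign, with 25561, 34899 and 27711 CPM at 250 uM against 44174, 39255 and 40913 CPM at 62.5 uM. Every 250 uM library was below every 62.5 uM library, and its difference of -0.50 (SE 0.21) did not pass (adjusted p = 0.467, edgeR). miR-30d-5p differed by -0.49 (SE 0.22) and miR-30c-5p by 0.52 (SE 0.24), both with overlapping groups and the same adjusted p of 0.467. miR-30e-3p had 27.6, 35.0 and 48.5 CPM at 250 uM against 14.5, 26.9 and 26.9 CPM at 62.5 uM, without overlap, and a difference of 0.72 (SE 0.42, adjusted p = 0.861, edgeR). In 3 of 8 members the groups did not overlap, against 12% of all miRNAs.

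At the higher dose of TLC-S no member differed from control past the threshold. edgeR called 0 of 8 members and 0% of all 351 miRNAs, 0 members had an unadjusted p under 0.05, and DESeq2 and limma called 0 members. miR-30b-5p differed by -0.08 (SE 0.32, 95% interval -0.74 to 0.57), and without control replicate 3 by 0.57. The other differences ran from -0.55 for miR-30b-3p to 0.40 for miR-30a-3p, and without control replicate 3 from -0.52 to 0.63 for the same members, with 0 called. miR-30b-3p had 19.7, 18.4 and 24.6 CPM with TLC-S at 250 uM against 36.3, 24.7 and 32.0 CPM in control. It was the 1 member of 8 whose groups did not overlap, against 7.12% of all miRNAs. The comparisons with control all share its 3 libraries.

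Caerulein left every member short of the threshold at both doses. At 100 nM edgeR called 0 of 8 members and 0% of all miRNAs, with 0 members at an unadjusted p under 0.05, and DESeq2 and limma called 0 members. The log2 differences from control ran from -0.75 (SE 0.37) for miR-30b-3p to 0.50 (SE 0.35) for miR-30a-3p. miR-30b-3p had 22.0, 12.2 and 18.6 CPM with caerulein at 100 nM against 36.3, 24.7 and 32.0 CPM in control, the 1 pair of groups without overlap, against 6.55% of all miRNAs. miR-30b-5p differed by 0.08 (SE 0.32, 95% interval -0.57 to 0.73), and by 0.74 without control replicate 3, where the 8 differences ran from -0.72 to 0.75 and 0 were called.

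At 100 pM edgeR also called 0 of 8 members and 0% of all miRNAs, 1 member had an unadjusted p under 0.05, and DESeq2 and limma called 0 members. That member was miR-30a-3p, with 114, 189 and 228 CPM with caerulein at 100 pM against 62.5, 117 and 136 CPM in control, a log2 difference of 0.74 (SE 0.35, adjusted p = 0.723, edgeR). Its groups overlapped. miR-30e-3p differed by 0.79 (SE 0.41) and miR-30b-5p by 0.23 (SE 0.32). Without control replicate 3 miR-30b-5p differed by 0.90 (adjusted p = 0.328, edgeR), and the 8 differences ran from -0.43 to 0.99 with 0 called. Without caerulein 100 pM replicate 3 it differed by -0.01. miR-30a-5p had 35744, 48083 and 35046 CPM with caerulein at 100 pM against 33353, 32343 and 27268 CPM in control. It was the 1 member of 8 without overlap, against 10.3% of all miRNAs, and its difference of 0.35 (SE 0.21) did not pass. Scaling by library totals in place of TMM shifted the median of all miRNAs by -0.24 in this comparison. Between the caerulein doses edgeR, DESeq2 and limma called 0 members, 0 had an unadjusted p under 0.05, 0 had groups without overlap against 5.7% of all miRNAs, and the differences of 100 nM minus 100 pM ran from -0.52 to 0.16; the same setting shifted that median by 0.29.

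The lower doses of the 2 agents differed in miR-30b-5p. It was lower with TLC-S at 62.5 uM than with caerulein at 100 pM, with a log2 difference of -1.72 (SE 0.33, 95% interval -2.39 to -1.05, adjusted p = 0.00320, edgeR), in 3 of 3 libraries. edgeR called 1.14% of the 351 miRNAs lower and 1 of the 8 members. The call did not rest on 1 library: over the single libraries left out the difference ran from -1.89 to -1.46, and it passed in 26 of 27 alternatives, with adjusted p from 1.92e-07 to 0.0626. With library totals the median of all miRNAs in this comparison shifted by 0.35. The 2 erythrocyte markers were separate in this comparison, at 88.2 to 151 CPM with TLC-S at 62.5 uM and 57.9 to 81.6 CPM with caerulein at 100 pM. The 4 acinar markers summed to 292547 to 345718 CPM with TLC-S at 62.5 uM, and to 331801, 604647 and 635431 CPM in the libraries with caerulein at 100 pM, sorted by size. The other 6 lists overlapped, and the part of these markers in the result was not tested.

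The next member in this comparison was miR-30e-3p, with 14.5, 26.9 and 26.9 CPM with TLC-S at 62.5 uM against 31.6, 80.0 and 78.1 CPM with caerulein at 100 pM. Its groups did not overlap, and its log2 difference was -1.46 (SE 0.42, adjusted p = 0.0858, edgeR). Without caerulein 100 pM replicate 1 it was -1.82 and passed (adjusted p = 0.0115). miR-30c-5p had 1103, 1217 and 1079 CPM with TLC-S at 62.5 uM against 1580, 1491 and 1979 CPM with caerulein at 100 pM. These groups were separate as well, with a difference of -0.57 (SE 0.24, adjusted p = 0.272, edgeR). miR-30a-3p differed by -0.75 (SE 0.35, adjusted p = 0.354, edgeR) with overlapping groups. With the replicate number added to the edgeR model, miR-30e-3p (adjusted p = 0.00782) and miR-30a-3p (adjusted p = 0.0409) passed in this comparison. In 3 of 8 members the groups did not overlap, against 16.2% of all miRNAs, and miR-30a-5p, miR-30d-5p and miR-30e-5p differed by 0.06, 0.30 and 0.31. Between the higher doses, edgeR, DESeq2 and limma called 0 members for TLC-S at 250 uM minus caerulein at 100 nM, 0 had an unadjusted p under 0.05, 0 lacked overlap against 5.41% of all miRNAs, and the differences ran from -0.25 to 0.20.

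Ratios between members inside a library do not depend on scaling between libraries, and in them too miR-30b-5p was low relative to its hairpin neighbour with TLC-S at 62.5 uM. The log2 ratio of miR-30b-5p to miR-30d-5p was -3.72, -2.47 and -2.46 in TLC-S 62.5 uM replicates 1, 2 and 3, against -1.69, -1.73 and -0.35 in those of control. The groups did not overlap, the mean difference was -1.63, and the exact two-sided permutation p was 0.1, the smallest that 3 against 3 allows (0.3 adjusted over 6 comparisons). Without single libraries the difference ran from -1.86 to -1.17, and it was -1.17 without control replicate 3. At 250 uM the ratio was -0.91, -1.20 and -0.92, so that 250 uM minus 62.5 uM gave 1.87, again without overlap and with an exact p of 0.1 (0.3 adjusted). With caerulein the mean ratio was -0.97 at 100 nM and -0.90 at 100 pM, both overlapping control at -1.25.

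The ratios of miR-30a-5p and of miR-30e-5p to miR-30c-5p also gave separate groups, at the same limit of the test. miR-30c-5p is made by the hairpin next to Mir30a and by the one next to Mir30e, so neither ratio compares single neighbouring hairpins. The mean log2 ratio of miR-30a-5p to miR-30c-5p was 5.19 ± 0.16 with TLC-S at 62.5 uM and 4.41 ± 0.39 in control (SD, n = 3 each), a difference of 0.79, or 0.57 without control replicate 3. For miR-30e-5p to miR-30c-5p it was 1.56 ± 0.16 with TLC-S at 62.5 uM and 0.97 ± 0.41 in control, a difference of 0.59, or 0.38 without control replicate 3. Both pairs of groups were separate, each with an exact two-sided permutation p of 0.1 (0.3 adjusted). Set together, miR-30b-5p and miR-30c-5p were 3.71% ± 0.745 of the 5p counts with TLC-S at 62.5 uM and 8.90% ± 4.32 in control. The log2 ratio of miR-30b-5p plus miR-30c-5p to the other 5p members differed by -1.26 with an exact p of 0.1 (0.3 adjusted), by -0.85 without control replicate 3, and by 1.41 for 250 uM minus 62.5 uM, also with an exact p of 0.1 (0.3 adjusted). These ratios share members, so they are not separate pieces of evidence.

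The ratio of the arms of 1 hairpin was tested in the same way. No difference could pass at 0.05, since the smallest exact p of 3 against 3 is 0.1. For miR-30e the log2 ratio of 3p to 5p was -7.92, -6.87 and -6.92 in TLC-S 62.5 uM replicates 1, 2 and 3, against -6.74, -6.30 and -5.89 in those of control. The groups did not overlap, with a difference of -0.93 (exact p = 0.1, 0.6 adjusted), or -0.72 without control replicate 3. For miR-30b the same comparison gave 0.41 with overlapping groups (exact p = 0.5, 0.6 adjusted), or -0.03 without control replicate 3. Its ratio of 3p to 5p was -6.94, -6.53 and -6.45 with TLC-S at 250 uM, against -5.29, -6.13 and -5.39 with TLC-S at 62.5 uM. The higher dose was lower in every library, by -1.04 (exact p = 0.1, 0.45 adjusted). For miR-30a the difference of 250 uM minus 62.5 uM was 0.95 (exact p = 0.1, 0.6 adjusted), opposite in sign to that of miR-30b. The caerulein comparisons overlapped in every ratio.

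**Figure D3:**
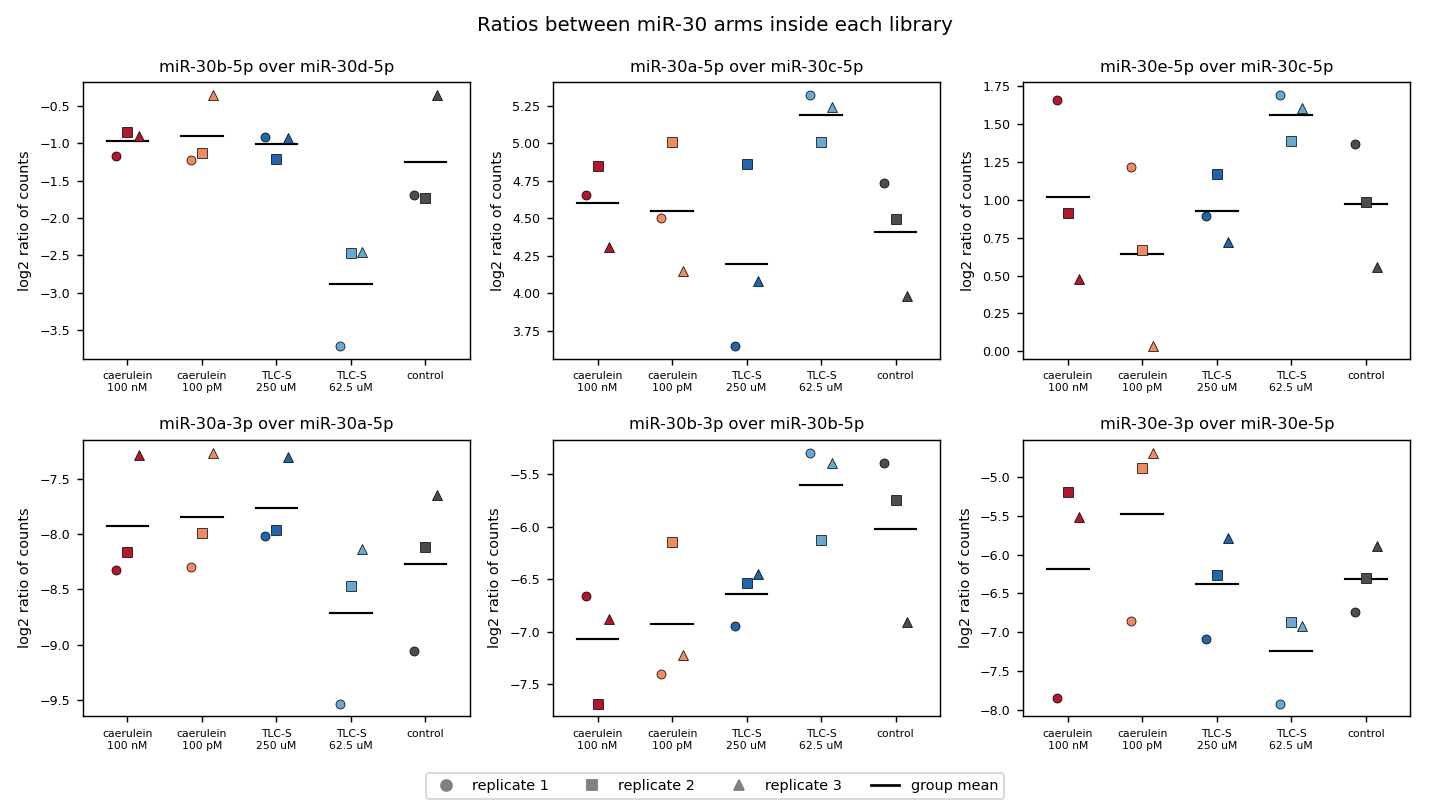
log2 ratios of counts inside each library for 3 pairs of 5p members and 3 pairs of arms; points are libraries, shapes give replicate numbers and bars are group means. For miR-30b-5p over miR-30d-5p the TLC-S 62.5 uM libraries lie from -3.72 to -2.46, below all others, at -1.73 to -0.35.

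Likeness between members was described by the SD over the 15 libraries of their log2 ratio, which is low where 2 miRNAs keep a fixed proportion. The closest pair was miR-30a-5p with miR-30d-5p (SD 0.26), followed by miR-30d-5p with miR-30e-5p (0.29). The 6 pairs of 5p members without miR-30b-5p ran from 0.26 to 0.48, and the 4 pairs with it from 0.55 to 0.93, miR-30c-5p being its nearest member. The 3p arms of miR-30a and miR-30e, which share a seed, were at 0.44. Arms of 1 hairpin were farther apart, at 0.62 for miR-30a, 0.76 for miR-30b and 0.99 for miR-30e, the widest of all 28 pairs. All pairs come from the same libraries, and scarce members carry more counting error in this measure.

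**Figure D4:**
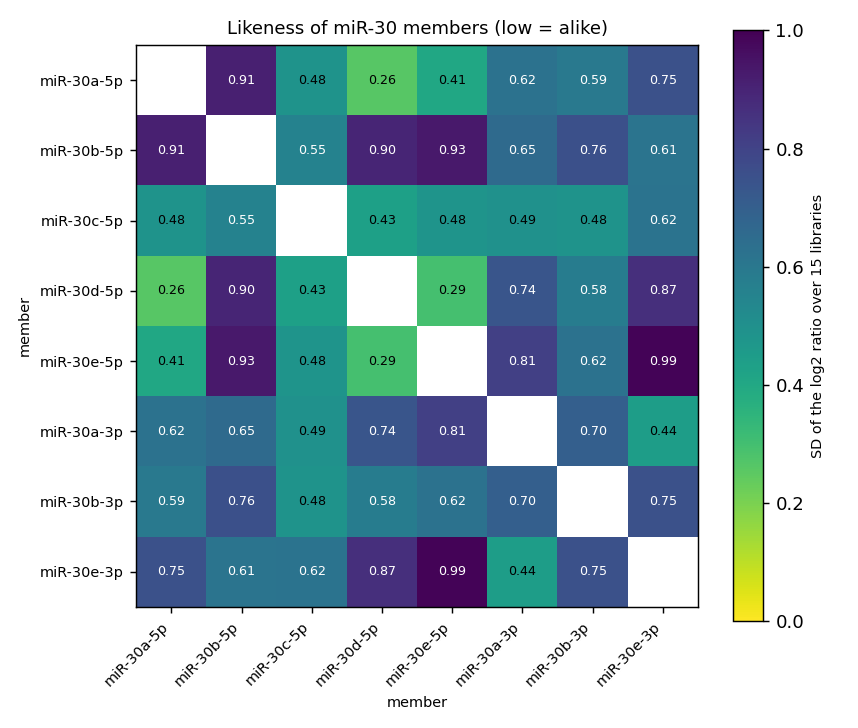
SD over 15 libraries of the log2 ratio of each pair of members, where a low value means a steady proportion. The rows of miR-30b-5p and miR-30e-3p are darkest, while miR-30a-5p, miR-30d-5p and miR-30e-5p form a block at 0.26 to 0.41.

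Over all tested miRNAs, those most like miR-30b-5p included arms of its family and miRNAs outside it. The nearest 5 of 350 were miR-216b-3p (SD 0.52), miR-217-3p (0.52), miR-5099 (0.55), miR-374b-5p (0.55) and miR-30c-2-3p (0.55), against a median of 0.90. miR-30c-5p ranked 6, miR-30e-3p 15, miR-30a-3p 22 and miR-30b-3p 66. miR-30d-5p, from the neighbouring hairpin, ranked 176 at 0.90, miR-30a-5p 185 and miR-30e-5p 198. miR-216b-3p was at 2107 ± 188 CPM with caerulein at 100 nM, 2441 ± 617 with caerulein at 100 pM, 2253 ± 350 with TLC-S at 250 uM, 1335 ± 563 with TLC-S at 62.5 uM and 1916 ± 444 in control (SD, n = 3 each). miR-217-3p was at 297 ± 69.6, 314 ± 57.1, 280 ± 23.0, 165 ± 32.7 and 259 ± 45.3 CPM in the same groups. The likeness was measured over these same libraries. Of the most abundant miRNAs, let-7f-5p ranked 9, let-7g-5p 14, miR-148a-3p 45, miR-217-5p 47 and miR-27b-3p 83. In that same set miR-375-3p ranked 89, let-7i-5p 96, miR-200a-3p 116 and miR-200b-3p 155.

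Of the other arms in the table, 3 of 4 were tested and none passed. miR-30c-2-3p was at 126 ± 28.4 CPM with TLC-S at 62.5 uM, against 197 ± 22.3 CPM with caerulein at 100 pM and 170 ± 25.3 CPM in control. Its log2 differences were -0.64 (SE 0.26, adjusted p = 0.270, edgeR) from caerulein at 100 pM and -0.43 (SE 0.26) from control. miR-30d-3p had at most 20.0 CPM and miR-30c-1-3p at most 6.89 CPM in any library. miR-30f, annotated opposite Mir30e, had 0 counts in all libraries.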

How the data were processed

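Small RNA of 15 libraries was analysed from tables the authors deposited. The submitters' processing notes name cutadapt, Bowtie, GRCm38 and mm10; no version or counting tool is given in the sources used here. Estimated counts (expected counts), whole in the deposited table of mature miRNAs, were equal within 0.5 to sums over a deposited table per precursor in which reads appear divided among precursors: miR-30b-5p was a multiple of 1/3 but not whole there (within 0.006) in 12 of 15 libraries. The deposited RPM values, scaled by the authors, matched those counts within 0.0313 and served only the limma alternatives.

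edgeR 4.0.16 (R 4.3.3) fitted 5 group means by glmQLFit and glmQLFTest after TMM scaling and filterByExpr (at least 10 counts, total at least 15), leaving 351 miRNAs and 10 residual degrees of freedom. There were 8 pair comparisons and an F test, adjusted by Benjamini-Hochberg over all tested miRNAs, with a threshold of 0.05; SE was derived from the F statistic. Ratios were of counts plus 0.5, with two-sided exact permutation tests (scipy 1.17.1), for 8 ratios in 6 comparisons each. CPM values are TMM-scaled. The model was run on simulated data in which far more miRNAs differed than were called here. That run was a check of the code, not of the calls in these libraries. No replicate pair agreed within sampling noise (chi-square over its degrees of freedom, 54.9 to 1657). The alternatives used other scalings, filters and tools (DESeq2 1.42.0, limma 3.58.1), a replicate block, the compared groups alone and each library left out. The 8 members, the miRNAs matched by arm or seed, the nearest 5 to a called member and the marker lists were named by rules, chosen with earlier results of these data known.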

Additional observations from a re-analysis of the deposited data

How the results depend on the processing

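The number of members called was recomputed under 27 alternatives per pair comparison and 26 for the F test. It stayed at 0 in all of them for TLC-S 250 uM, caerulein 100 nM and caerulein 100 pM against control, for the caerulein doses and for the higher doses of the agents. For TLC-S 62.5 uM minus control it was 0 with library totals (miR-30b-5p adjusted p = 0.0734), limma at a pseudocount of 1 (0.186) and the 2 groups alone (0.148), and 0 to 1 with single libraries left out. For TLC-S 250 uM minus 62.5 uM it was 0 with a mean CPM of at least 10 (0.0612) and limma at a pseudocount of 1 (0.104), and 0 to 1 with single libraries left out. For TLC-S 62.5 uM minus caerulein 100 pM it was 0 with limma at a pseudocount of 1 (0.0626), 2 with no filter and with DESeq2, 3 with the replicate block, and 1 to 2 with single libraries left out; the added members were miR-30e-3p (adjusted p = 0.00782 under the block) and, under the block, miR-30a-3p (adjusted p = 0.0409). For the F test it was 0 with library totals, a mean CPM of at least 10 and limma at a pseudocount of 1, and 0 to 1 with single libraries left out. The cause of these changes was not tested.

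Over all miRNAs, calls ranged from 0 to 5 for TLC-S 62.5 uM minus control (2 as reported), 0 to 4 between the TLC-S doses (4), 2 to 14 for TLC-S 62.5 uM minus caerulein 100 pM (5) and 1 to 10 for the F test (3). The labels tie replicate numbers to no batch. Deviations of same-numbered libraries correlated at -0.124 to 0.397 (median 0.0996, 30 pairs) and those of different numbers at -0.396 to 0.268 (median -0.034, 60 pairs), and 11 of 15 libraries correlated best with one of their own number. This is a hint of pairing from the data. The library codes in the sample titles also fall into 3 series, each holding 1 library of every group, without a statement of what a series shares. The main fit and the permutation tests did not use these series, while the replicate block did. Of 1728 alternative log2 differences of members, 108 had the opposite sign, all where neither value passed. Of 336 alternative ratio differences, 43 had the opposite sign. Of them 0 moved by the spread between replicates, but this is no sign of stability. Leaving out 1 library of 3 cannot shift a group mean by as much as the SD of that group. With 3 libraries a group, the median 95% interval of a member reached 0.60 to either side for TLC-S 62.5 uM minus control.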
